A study of Mus musculus with 4 samples.

Results

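The 10 genes of the NF-kB feedback circuit and its surroundings that were followed across the cell types of mouse mammary organoids were Nfkbia, Nfkbiz, Nfkb1, Nfkb2, Relb, Tnfaip3, Tnip3, Icam1, Zfp36 and Il33. They were taken by symbol, and all 10 were found among the 32285 genes of the single-cell count matrices. The organoids were grown from the mammary gland of virgin mice aged 8 to 9 weeks and kept in Matrigel (called MATR), collagen (COL1), or conditions named only stiff (STIFF) and soft (SOFT). Lymph nodes had been removed from the tissue. The labels give no strain, culture time or matrix composition. Each of the 4 conditions carried 1 hashtag and is counted as 1 culture, since the labels name no replicates. After dissociation the cells were marked with hashtag antibodies, COL1 cells shared 1 channel of a droplet chip with STIFF cells, and MATR cells another with SOFT cells. COL1 over MATR and STIFF over SOFT therefore also compare channels, and in them the culture and its channel cannot be told apart. With 1 culture per condition no test was possible. The levels below are CPM, the share of a gene among the unique molecule counts (UMIs) summed over a group of cells, scaled to 1e+06, and the ranges in parentheses are exact 95% intervals that cover counting error only.

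NF-kB is a family of transcription factors formed as dimers of Rela, Rel, Relb and the processed products of Nfkb1 and Nfkb2. Inhibitor proteins hold the dimers in the cytoplasm until a signal from receptors for TNF, interleukin 1 or microbial products leads to their degradation. The dimers then switch on genes that end their own activity, among them Nfkbia (the inhibitor IkB-alpha) and Tnfaip3 (A20, an enzyme that edits ubiquitin on signalling proteins), and genes of the inflammatory response. Il33 is an alarmin of the interleukin 1 family that is kept in the nucleus of epithelial and stromal cells and signals through Il1rl1 when it is released. In the mammary gland, NF-kB is known for its part in luminal development and in milk stasis and involution.

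The stretch of 250 bases before an annotated start was searched for the kappaB decamer consensus and for the shorter GGAAANNCC, on both strands; the motifs can overlap. RefSeq windows (GRCm38.p6) were at hand for 7 of the 10 genes, and Nfkbiz, Nfkb1 and Relb had none. Of all 32851 windows, 5.001% held the decamer and 4.93% held GGAAANNCC. In 1 or more of their windows, 4 of the 7 genes (Nfkbia, Nfkb2, Tnfaip3, Tnip3) held the decamer and 5 of them, with Icam1 added, held GGAAANNCC. Genes with several windows had more chances of a match. Zfp36 (1 window) and Il33 (2 windows) had neither. Of the 4 sequences below, the first 2 are of inhibitors that were higher together in COL1 and STIFF in luminal and immune cells. The others are of the feedback gene Tnip3, highest in HR-positive cells, and of Il33, which in HR-positive cells ran the other way. Capitals mark either motif, and each sequence runs 5′ to 3′ on the strand of its gene and ends 1 base before the start.
Nfkbia: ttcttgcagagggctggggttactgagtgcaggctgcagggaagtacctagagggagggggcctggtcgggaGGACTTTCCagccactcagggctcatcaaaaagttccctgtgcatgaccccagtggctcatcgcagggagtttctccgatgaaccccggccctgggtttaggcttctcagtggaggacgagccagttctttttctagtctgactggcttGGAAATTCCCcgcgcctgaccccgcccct
Tnfaip3: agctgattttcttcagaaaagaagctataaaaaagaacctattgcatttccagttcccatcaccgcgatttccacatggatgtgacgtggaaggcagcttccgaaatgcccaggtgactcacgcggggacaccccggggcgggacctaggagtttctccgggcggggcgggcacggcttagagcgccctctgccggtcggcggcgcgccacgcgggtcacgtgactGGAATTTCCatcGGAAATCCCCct
Tnip3: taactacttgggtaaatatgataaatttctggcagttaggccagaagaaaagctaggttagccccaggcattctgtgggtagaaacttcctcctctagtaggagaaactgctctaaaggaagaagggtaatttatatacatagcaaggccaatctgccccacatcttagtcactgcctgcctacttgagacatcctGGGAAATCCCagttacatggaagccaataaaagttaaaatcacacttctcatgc
Il33: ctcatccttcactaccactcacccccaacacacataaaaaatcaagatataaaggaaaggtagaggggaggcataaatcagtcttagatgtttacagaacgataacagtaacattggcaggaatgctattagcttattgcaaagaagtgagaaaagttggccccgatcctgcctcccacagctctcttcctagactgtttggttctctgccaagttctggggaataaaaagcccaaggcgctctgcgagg
The Nfkbia window is chr12:55492648-55492897, reverse strand, with a GGAAANNCC match 178 to 170 bases and a decamer 29 to 20 bases before the start. That of Tnfaip3, the first of 2, is chr10:19015411-19015660, reverse strand, with a GGAAANNCC match 24 to 16 bases and a decamer 12 to 3 bases before the start. Tnip3 has its window at chr6:65590148-65590397, forward strand, with a decamer 54 to 45 bases before the start. The Il33 window, the first of 2, is chr19:29924863-29925112, forward strand. A match describes letters only, and binding was not measured.

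By RefSeq (GRCm38.p6) Nfkbia spans 55489409 to 55492647 on chromosome 12, Tnfaip3 19000910 to 19015410 on chromosome 10 and Nfkbiz 55811375 to 55838954 on chromosome 16. Tnip3 spans 65590398 to 65634040 on chromosome 6 and Icam1 21015940 to 21028814 on chromosome 9. On chromosome 19 lie Il33, 29925113 to 29960718, and Nfkb2, 46300994 to 46312400. Zfp36, 28376784 to 28379228, and Relb, 19606217 to 19629438, are on chromosome 7, and Nfkb1, 135584655 to 135691969, is on chromosome 3. The counts are of whole genes at their 3′ ends, so isoforms were not separated.

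By their tags 1563 singlets were from COL1 and 2451 from STIFF, against 2333 from MATR and 1941 from SOFT, with 23466134 to 52611678 UMIs per condition. Which tag marked which culture was taken from how the deposited matrices were named. No tag was called on 54.9% of the kept barcodes of the COL1 and STIFF channel and 42.7% of the other, and this share was highest in HR-negative cells (79.6% and 71.2%) and lowest in immune cells (4.28% and 0.442%). The channels shared 19 barcodes. The 5 classes compared were named for their likeness to known cells by marker genes: basal-like, hormone receptor-positive luminal (HR-positive), hormone receptor-negative luminal (HR-negative), fibroblast-like and immune-like, called basal, fibroblast and immune cells in what follows. Each had at least 6 of its own markers at 20 CPM or more; HR-negative cells had 6 of 9 and HR-positive cells 8 of 9. All 8 fibroblast markers reached it in the fibroblast class, as did 6 of 7 pericyte markers and 6 of 10 basal markers. HR-positive markers reached 20 CPM for 7 of 9 in basal and 6 of 9 in immune cells. This count alone therefore does not set the classes apart. The own list summed to 8200 CPM in basal cells against 1413.5 for HR-positive markers, and to 39964 against 1362 CPM in immune cells. In fibroblasts the own list had 15315 CPM and the basal list 3216 CPM. The 5 lymphocyte markers were all at 0 in immune cells, which were led by the macrophage genes Lyz2 and C1qa. The SOFT groups of basal cells (77 cells) and fibroblasts (82 cells) were under the minimum of 100 and entered no fold. Clusters 1, 7, 9 and 10, of 983, 102, 121 and 256 singlets, kept no name and count only among all singlets. Cluster 1 was led by HR-negative markers, with HR-positive markers second, and was larger than the HR-negative class of 909 singlets. It held 123 of the COL1, 461 of the STIFF, 266 of the MATR and 133 of the SOFT singlets. The HR-negative class therefore does not cover all cells with HR-negative markers.

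**Figure D1:**
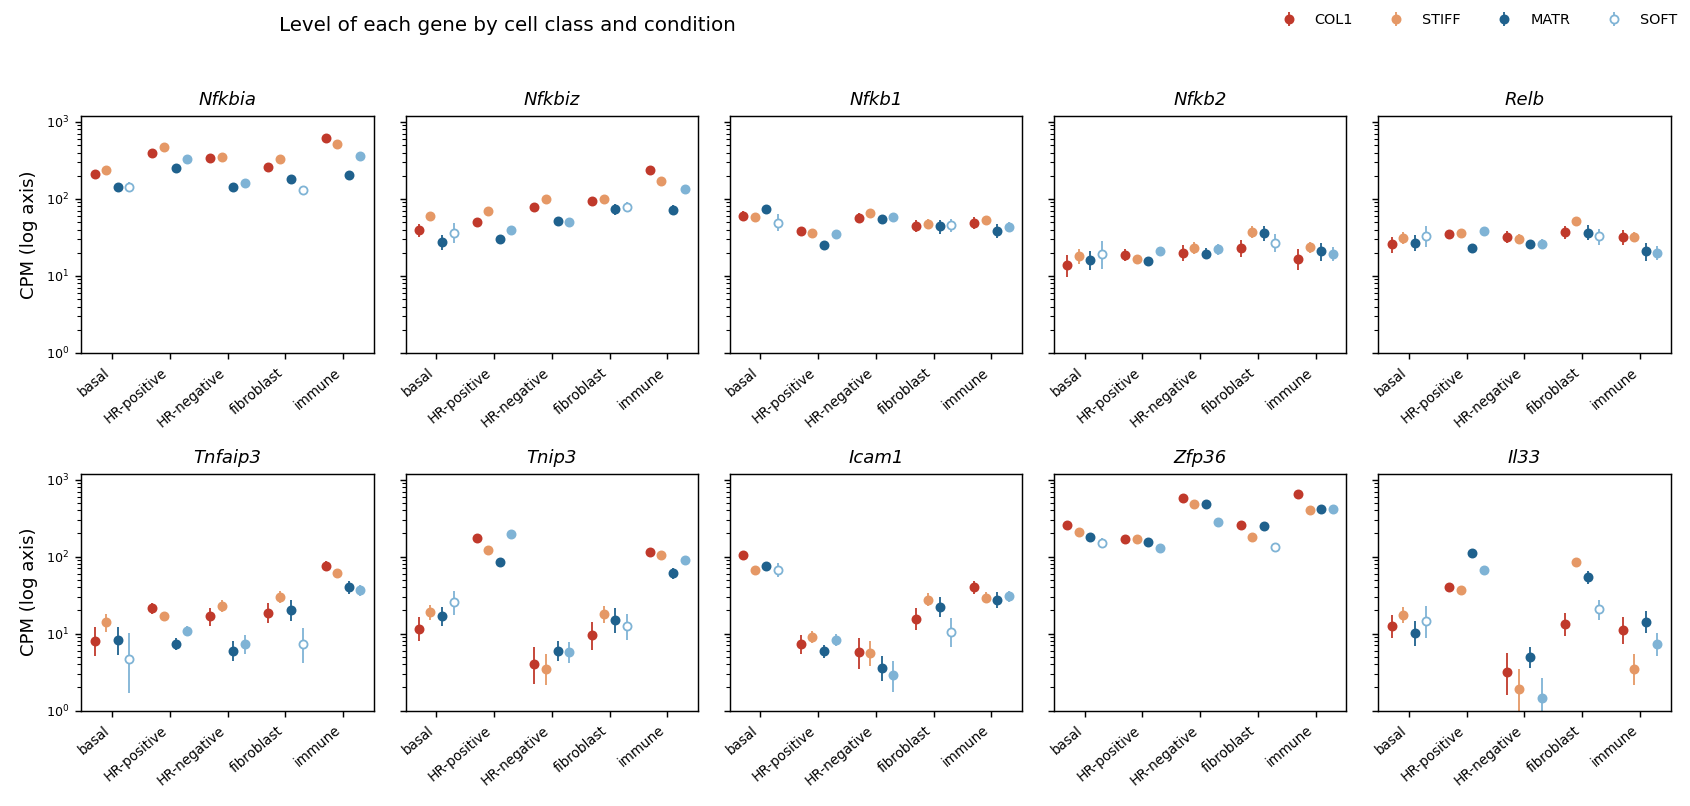
CPM on a log axis, cut at 1 CPM, of each of the 10 genes in the 5 cell classes, with 1 point per condition, exact 95% counting intervals as bars, and open points for groups under 100 cells. In every class both COL1 and STIFF points of Nfkbia lie above those of MATR and SOFT, while the highest Il33 point is the MATR one in HR-positive cells, at 112 CPM.

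Among the inhibitors, Nfkbia was higher in COL1 and STIFF than in MATR and SOFT in each of the 5 classes. In immune cells its level was 625 CPM in COL1 and 518 in STIFF against 202 in MATR and 364 in SOFT. MATR immune cells were lowest and no interval of the 4 overlapped another. HR-negative cells had 339 CPM in COL1 and 354 in STIFF against 142 in MATR and 159 in SOFT, so COL1 and STIFF stood close together and well above the other pair. In HR-positive cells the values were 389 CPM in COL1 and 469 in STIFF against 253 in MATR and 329 in SOFT. Basal cells had 213 CPM in COL1 and 237 in STIFF against 141 in MATR and 142 in SOFT, and fibroblasts 259 CPM in COL1 and 328 in STIFF against 181 in MATR and 131 in SOFT. The fold of COL1 over MATR was 3.10-fold (2.80 to 3.43) in immune cells, 2.39-fold (2.20 to 2.59) in HR-negative cells, 1.54-fold (1.47 to 1.61) in HR-positive cells, 1.51-fold (1.33 to 1.72) in basal cells and 1.43-fold (1.26 to 1.63) in fibroblasts. For STIFF over SOFT it was 2.23-fold (2.07 to 2.40) in HR-negative, 1.43-fold (1.38 to 1.48) in HR-positive and 1.42-fold (1.34 to 1.51) in immune cells. Under TMM scaling the log2 ratio of STIFF over SOFT in immune cells fell from 0.50 to 0.27. Summed over the 4 conditions, the classes ran from immune (433 CPM (422 to 443)) through HR-positive, fibroblast and HR-negative to basal (194 CPM (186 to 203)). No neighbours in that order had overlapping counting intervals, but their ranges over conditions overlapped, so the order of classes did not hold in every condition.

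Immediate early genes, which respond quickly to many stimuli and to tissue dissociation, ran in the same direction as Nfkbia. The summed level of the 11 genes on that list was 17697, 17349.5, 14329 and 10400.2 CPM in COL1, STIFF, MATR and SOFT HR-negative cells and 10527, 8915, 6982 and 5648 CPM in immune cells, in the same order of conditions. Among HR-positive cells it was 11651, 11896, 9029 and 8624 CPM. COL1 and STIFF were above MATR and SOFT each time, as they also were in basal cells (11677, 11411, 7744 and 6979 CPM) and fibroblasts (8133, 7382, 7066 and 4948 CPM). The part of these responses in the levels of Nfkbia was not tested.

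Nfkbiz encodes IkB-zeta, a nuclear inhibitor-like protein that also activates a set of inflammatory genes. Summed over the conditions it was highest in immune cells, which had 240.5 CPM in COL1 and 173 in STIFF against 72.3 in MATR and 135 in SOFT; in MATR fibroblasts were level with them, at 73.8 CPM. Fibroblasts had 73.8 to 101 CPM over the conditions, HR-negative cells 50.2 to 101 CPM, HR-positive cells 29.7 to 70.4 CPM and basal cells 27.3 to 60.2 CPM. Over the 4 conditions together, the counting intervals of HR-positive (46.1 CPM (44.3 to 47.9)) and basal cells (43.4 CPM (39.6 to 47.4)) overlapped, and the other neighbours in the order did not. COL1 exceeded MATR by 3.33-fold (2.82 to 3.94) in immune cells and by 1.69-fold (1.47 to 1.94) in HR-positive cells. STIFF exceeded SOFT by 2.01-fold (1.76 to 2.30) in HR-negative and 1.80-fold (1.62 to 1.99) in HR-positive cells, and by 1.28-fold (1.16 to 1.42) in immune cells. Under TMM scaling the log2 ratio in immune cells fell from 0.33 to 0.11. The median of all genes in that comparison was 0.14.

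Tnfaip3 was a low gene outside immune cells, where it had 76.2 CPM in COL1 and 60.5 in STIFF against 39.997 in MATR and 36.4 in SOFT. In HR-positive cells it was at 21.3 CPM in COL1 and 16.7 in STIFF against 7.35 in MATR and 10.9 in SOFT, and in HR-negative cells at 16.7 CPM in COL1 and 22.6 in STIFF against 5.97 in MATR and 7.31 in SOFT. Both luminal classes were thus higher in COL1 and STIFF than in MATR and SOFT. The fold of COL1 over MATR was 2.90-fold (2.28 to 3.69) in HR-positive and 2.79-fold (1.87 to 4.18) in HR-negative cells, and that of STIFF over SOFT was 1.53-fold (1.25 to 1.87) and 3.10-fold (2.22 to 4.37). Immune cells gave 1.90-fold (1.49 to 2.45) for COL1 over MATR, although the mean of single-cell CPM reduced the log2 ratio from 0.79 to 0.30. Basal cells and fibroblasts showed no such step between COL1 and MATR, with 0.989-fold (0.533 to 1.83) and 0.923-fold (0.599 to 1.43). Their extremes were STIFF and SOFT, at 13.998 and 4.62 CPM in basal cells and 30.1 and 7.35 CPM in fibroblasts. These SOFT groups were under 100 cells, so no fold was taken. Over all conditions HR-positive, HR-negative and basal cells had overlapping or touching intervals, at 12.6 CPM (11.7 to 13.6), 11.8 CPM (10.5 to 13.3) and 9.85 CPM (8.08 to 11.9).

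Tnip3, which encodes an A20-binding protein, was highest in HR-positive and immune cells. HR-positive cells had 176 CPM in COL1 and 121 in STIFF against 85.7 in MATR and 194 in SOFT. SOFT and COL1 were the high conditions here, 1 from each channel, and MATR the low one. Immune cells had 116 CPM in COL1 and 104 in STIFF against 60.8 in MATR and 90.2 in SOFT. HR-negative cells were at 3.51 to 5.97 CPM, basal cells at 11.6 to 25.4 CPM and fibroblasts at 9.54 to 17.8 CPM. COL1 over MATR was 2.05-fold (1.90 to 2.22) in HR-positive cells and 1.91-fold (1.57 to 2.34) in immune cells. STIFF was below SOFT in HR-positive cells, by 1.60-fold (1.51 to 1.70), and MATR was below SOFT by 2.26-fold (2.12 to 2.40). In immune cells STIFF over SOFT was 1.15-fold (1.01 to 1.31), but under TMM scaling the log2 ratio went from 0.18 to -0.05. The 9 HR-positive markers summed to 1011, 2214, 1106 and 711 CPM in COL1, STIFF, MATR and SOFT immune cells, and their part in immune Tnip3 was not tested. When each cell was thinned to 3000 UMIs, 27.01% of COL1, 18.8% of STIFF, 16.1% of MATR and 29.6% of SOFT HR-positive cells had a Tnip3 UMI; without thinning the shares were 48.5%, 34.7%, 33.5% and 58.9% in COL1, STIFF, MATR and SOFT. In HR-negative cells, taken as background, the thinned share was 0.889% to 1.69%.

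The 3 subunit genes varied less. Over the 20 groups, Nfkb1, the precursor of p50, ranged from 24.96 CPM in MATR HR-positive cells to 73.01 CPM in MATR basal cells. Nfkb2, the precursor of p52 in the alternative pathway, ranged from 13.7 CPM in COL1 basal cells to 37.4 CPM in STIFF fibroblast cells, and its partner Relb from 19.97 CPM in SOFT immune cells to 51.03 CPM in STIFF fibroblast cells. In HR-positive cells MATR was lowest for all 3: Nfkb1 had 37.95 CPM in COL1 and 36.5 in STIFF against 24.96 in MATR and 34.9 in SOFT. Relb there was at 35.2 CPM in COL1 and 36.3 in STIFF against 23.4 in MATR and 38.7 in SOFT, and Nfkb2 at 18.7 CPM in COL1 and 16.4 in STIFF against 15.9 in MATR and 21.1 in SOFT. The fold of COL1 over MATR in these cells was 1.52-fold (1.30 to 1.77) for Nfkb1, 1.51-fold (1.28 to 1.77) for Relb and 1.18-fold (0.95 to 1.46) for Nfkb2. With the 10 CPM added before the log2, none of these passed 1.5-fold. Relb in immune cells was 31.9 CPM in COL1 and 31.99 in STIFF against 20.8 in MATR and 19.97 in SOFT. Fibroblasts carried the most Nfkb2, with 22.9 CPM in COL1 and 37.4 in STIFF against 35.7 in MATR and 27.1 in SOFT. COL1 fibroblasts were the lowest of these.

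The targets Icam1 and Zfp36 followed cell type more than condition. Icam1, an adhesion protein that binds leukocyte integrins, was highest in basal cells, with 105 CPM in COL1 and 67.7 in STIFF against 74.4 in MATR and 67.8 in SOFT. COL1 basal cells were above STIFF by 1.55-fold (1.31 to 1.84) and above MATR by 1.42-fold (1.18 to 1.69), while the other conditions had overlapping intervals. Immune cells had 27.7 to 39.7 CPM, HR-positive cells 5.87 to 9.04 CPM and HR-negative cells 2.87 to 5.74 CPM. Over all singlets Icam1 was 1.95-fold (1.73 to 2.20) higher in COL1 than in MATR, and no class reached that fold. Basal cells were 230 of 1563 COL1 and 180 of 2333 MATR singlets, and the unnamed cluster 10, led by basal markers, held 73 and 22. The part of these shares in the fold over all singlets was not tested. Of the Icam1 UMIs in STIFF fibroblasts, 66 of 105 were in 1 cell, and without it the level was 10.5 instead of 27.5 CPM.

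Zfp36 encodes tristetraprolin, which binds AU-rich elements and speeds the decay of cytokine mRNAs. It was abundant in immune and HR-negative cells. Immune cells had 644 CPM in COL1 and 404 in STIFF against 418 in MATR and 410.5 in SOFT, so COL1 was highest and the intervals of the other conditions overlapped. HR-negative cells had 577 CPM in COL1 and 481 in STIFF against 481 in MATR and 278 in SOFT, where SOFT was the low one. SOFT was lower than MATR there by 1.73-fold (1.64 to 1.83) and lower than STIFF by 1.73-fold (1.63 to 1.84). The sums over conditions of immune and HR-negative cells had overlapping intervals, as had those of basal (207 CPM (198 to 216)) and fibroblast cells (202 CPM (193 to 211)). HR-positive cells were lowest, at 129 to 172 CPM.

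In HR-positive cells Il33 ran opposite to Nfkbia between the channels. These cells had 40.1 CPM in COL1 and 37.1 in STIFF against 112 in MATR and 66.5 in SOFT, with MATR highest and both COL1 and STIFF below SOFT. COL1 was 2.78-fold (2.46 to 3.17) lower than MATR, STIFF was 1.79-fold (1.62 to 1.99) lower than SOFT, and MATR exceeded SOFT by 1.68-fold (1.56 to 1.81). COL1 and STIFF differed there by 1.08-fold (0.935 to 1.25), an interval that includes 1; the log2 ratio of 0.09 became 0.63 when tags were divided by their medians over barcodes (the relative tag rule). The thinned share of HR-positive cells with an Il33 UMI was 9.96% in COL1 and 5.78% in STIFF against 19.6% in MATR and 10.8% in SOFT; without thinning it was 21.9%, 15.97%, 43.6% and 25.4% in COL1, STIFF, MATR and SOFT. Among HR-negative cells it was at most 0.322%, with levels of 1.43 to 4.97 CPM. Basal cells had 10.2 to 17.5 CPM and immune cells 3.51 to 14.2 CPM.

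In fibroblasts Il33 was at 13.3 CPM in COL1 and 84.01 in STIFF against 53.5 in MATR and 20.7 in SOFT, so in STIFF they were above HR-positive cells. COL1 was below MATR by 4.01-fold (2.72 to 6.04) and below STIFF by 6.29-fold (4.43 to 9.20). Single cells weighed on these sums: 87 of 321 Il33 UMIs of STIFF fibroblasts came from 1 cell, and the level without it was 61.7 CPM. Under the relative tag rule the log2 ratio of COL1 over MATR in fibroblasts moved from -1.44 to -0.40, and that of COL1 over STIFF from -2.01 to -0.81. Luminal RNA in the fibroblast class was, like Il33, highest in STIFF and next in MATR: the 9 HR-positive markers summed to 559, 1119, 716 and 451 CPM in COL1, STIFF, MATR and SOFT, and the luminal keratin and adhesion genes to 1515, 3298, 2229.7 and 1722 CPM. The 8 immune markers summed to 990.1, 795, 515 and 1713 CPM. The part of these in the result was not tested. Over all singlets the receptor gene Il1rl1 was under 5 CPM in every condition. In fibroblasts it reached that level, with a log2 ratio of 0.39 for COL1 over MATR and -0.06 for COL1 over STIFF.

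**Figure D2:**
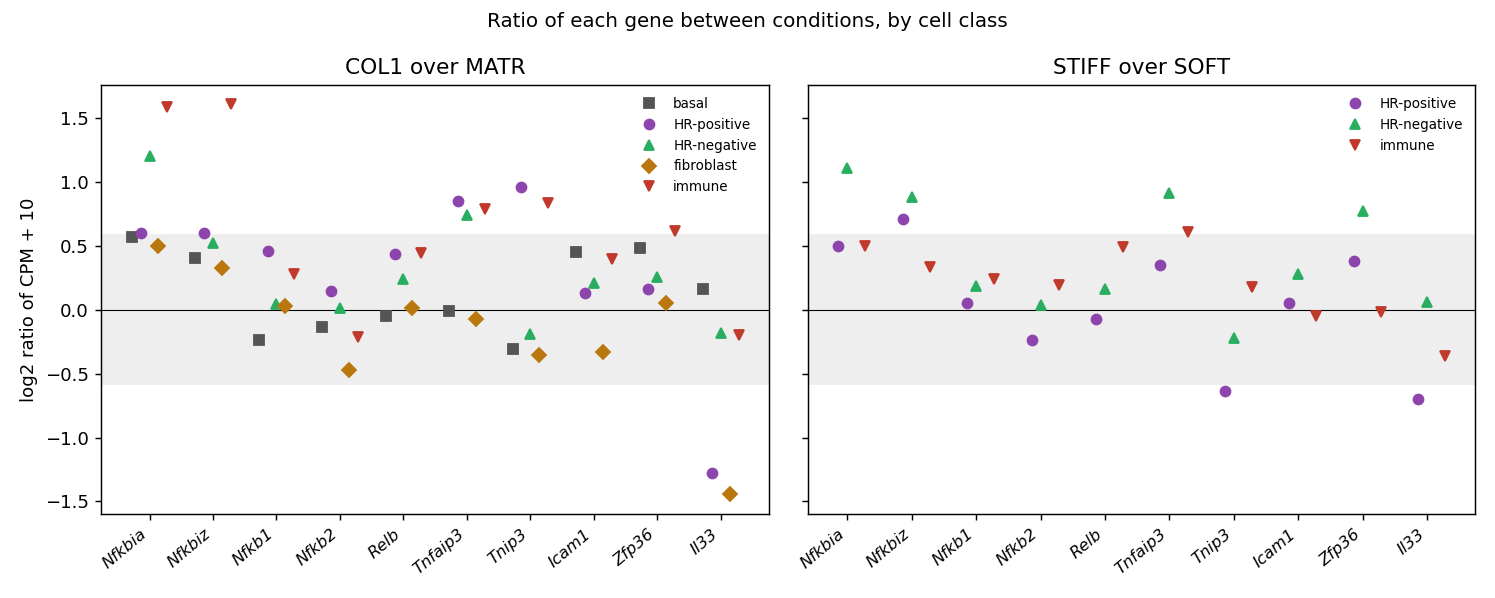
Log2 ratio of CPM + 10 of each gene for COL1 over MATR (left, 5 classes) and STIFF over SOFT (right, 3 classes), with 1 marker per class and the band within 1.5-fold shaded. Nfkbia lies above 0 in every class on both sides, Il33 is at -1.28 (left) and -0.70 (right) in HR-positive cells, and Tnip3 lies on opposite sides of 0 in HR-positive cells.

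For counts, a gene was read as higher or lower when the ratio of CPM + 10 passed 1.5-fold, among genes of at least 5 CPM in 1 of the conditions. Over all COL1 and MATR singlets 4 of the 10 genes were higher in COL1 (Nfkbia, Nfkbiz, Tnfaip3 and Icam1), against 2.39% of 10393 genes, and Il33 was lower, against 0.597%. The median log2 ratio was 0.41 for the 10 genes and 0.02 for all genes. The log2 ratios of the 5 classes were also averaged, which takes out class shares but not cluster shares within HR-positive cells. In this mean Nfkbia (0.89) and Nfkbiz (0.69) were higher and Il33 (-0.59) lower, against 0.284% and 0.0894% of 12304 genes. The Il33 value sits at the threshold of -0.58 and fell short of it under 5 of the other settings. By class, HR-positive cells had 4 genes higher (Nfkbia, Nfkbiz, Tnfaip3, Tnip3; 0.931% of all genes) and Il33 lower (0.397%). Under TMM scaling Nfkbia (0.48) and Nfkbiz (0.48) no longer passed there, and they passed in 9 and 7 of 12 settings; Tnfaip3, Tnip3 and Il33 passed in all 12. Immune cells had 5 higher, with Zfp36 added (2.54%), and none lower (1.44%), with Zfp36 at 0.55 under the raw margin tag rule (which needs the larger tag at 3 times the other). HR-negative cells had Nfkbia and Tnfaip3 higher (0.596%) and none of 9 measured genes lower (0.247%); Tnfaip3 there was 0.52 at a Leiden resolution of 1.0. Fibroblasts had none higher (1.69%) and Il33 lower (2.74%). In basal cells none of the 10 passed in either direction (0.876% and 0.847%), the nearest being Nfkbia at 0.57.

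STIFF over SOFT gave fewer such genes over all singlets: none was higher (1.4% of 10377 genes) and Tnip3 was lower, at -0.66 (0.964%). Without the unnamed clusters the counts were 2 higher and 0 lower. Averaged over the 3 classes that could be compared, Nfkbia (0.70), Nfkbiz (0.64) and Tnfaip3 (0.62) were higher (1.47% of 11329 genes) and none was lower (0.247%). The count of 3 became 1 under TMM scaling, the raw margin tag rule or a Leiden resolution of 1.0. HR-negative cells had 4 genes higher, the same 3 and Zfp36 (1.53%), and none lower (0.908%). Of these, Tnfaip3 was 0.47 at resolution 1.0 and Zfp36 0.53 under the raw margin tag rule. HR-positive cells had Nfkbiz higher (1.63%) and Tnip3 and Il33 lower (1.41%), with Tnip3 just short of the threshold under the raw margin tag rule. Immune cells had Tnfaip3 higher, against 8.33% of all genes, and none lower (1.59%). That 1 of 10 is near the background of this class, whose all-gene median was itself 0.14, and Tnfaip3 was 0.38 under TMM scaling.

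The conditions of 1 channel were compared next. COL1 over STIFF had none past 1.5-fold over all singlets in either direction (0.987% and 0.518% of 10432 genes) and none in the mean over 5 classes (0.0814% and 0.431% of 12288). The nearest were Icam1 over all singlets, at 0.35, and Zfp36 in the mean, at 0.34. By class, immune cells had Zfp36 (0.66) and Il33 (0.65) higher (1.33% of 10040 genes) and none lower (3.7%). Without the highest cell of each group Il33 there was -0.05. Fibroblasts had Il33 lower, at -2.01 (3.0% of 10378 genes), and none higher (1.6%). Basal, HR-positive and HR-negative cells had none in either direction, against 0.225% to 1.31% of all genes. MATR over SOFT had Il33 higher (0.74; 0.953% of 10281 genes) and Tnip3 lower (-0.90; 1.74%) over all singlets. The mean over 3 classes had neither past the threshold (0.302% and 0.284% of 11263), with Il33 at 0.51 and Tnip3 at -0.52. In MATR immune cells Nfkbia and Nfkbiz were below SOFT by 1.81-fold (1.64 to 1.99) and 1.87-fold (1.59 to 2.21). Of all 9717 genes there, 1.71% were lower and 3.38% higher, and none of the 10 was higher. HR-positive cells had Il33 higher (0.67; 0.981% of all genes) and Tnip3 lower (-1.09; 1.3%). HR-negative cells had Zfp36 higher (0.77; 0.535%) and none of 8 measured genes lower (0.658%). These comparisons share their conditions with the ones above.

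Because so many barcodes had no tag, the channels were also compared with every kept barcode, tagged or not. Nfkbia was higher in the COL1 and STIFF channel in all 5 classes, from 1.47-fold (1.38 to 1.58) in basal to 1.94-fold (1.88 to 2.01) in HR-negative cells. Nfkbiz was 1.31-fold (1.17 to 1.45) higher in fibroblasts and 1.83-fold (1.71 to 1.95) in HR-positive cells, its lowest and highest values. Tnfaip3 was higher by 1.53-fold (1.12 to 2.12) in basal and 2.24-fold (1.91 to 2.63) in HR-negative cells, with fibroblasts at 2.04-fold (1.61 to 2.60). HR-positive Il33 was 44.1 CPM in the COL1 and STIFF channel and 91.6 CPM in the MATR and SOFT channel, 2.08-fold (1.95 to 2.21) lower. In fibroblasts it was 1.51-fold (1.29 to 1.76) higher in the COL1 and STIFF channel, the direction of STIFF and not of COL1 in the tagged cells. The fold in fibroblasts includes the single STIFF cell with many Il33 UMIs described above. HR-positive Tnip3 was close between channels, at 131 and 138 CPM.

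**Figure D3:**
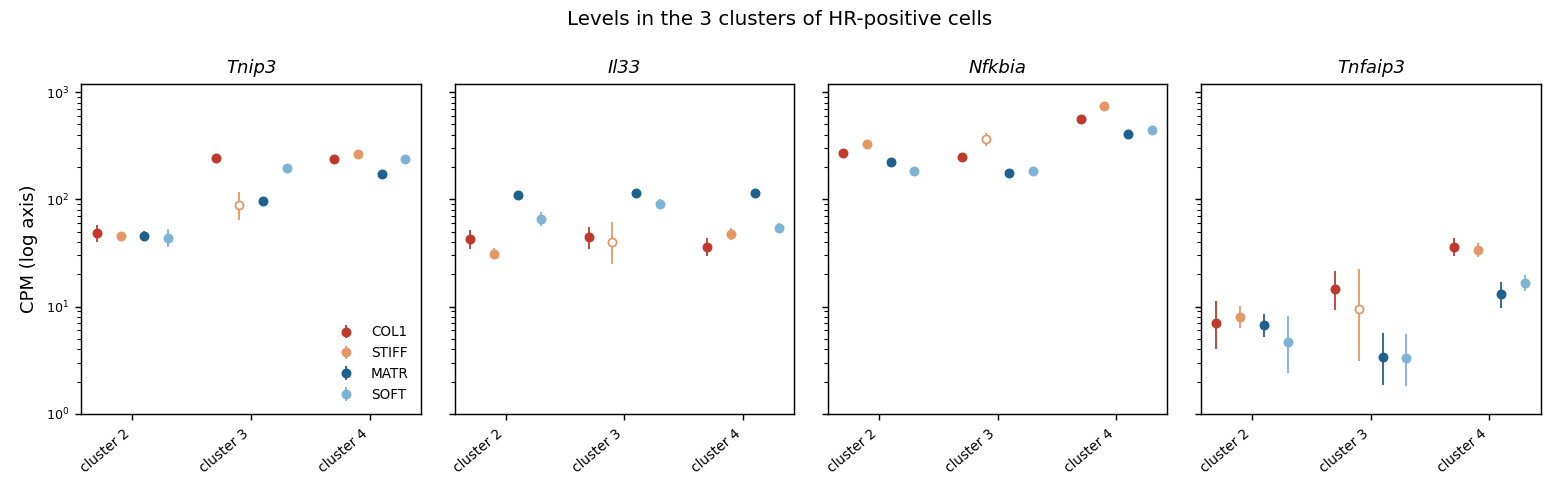
CPM on a log axis of Tnip3, Il33, Nfkbia and Tnfaip3 in the 3 clusters of HR-positive cells, with 1 point per condition, exact 95% counting intervals and an open point for the group under 100 cells. Tnip3 is near 45.7 CPM in every condition of cluster 2 and higher in clusters 3 and 4, while MATR is highest for Il33 in each cluster.

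HR-positive cells fell into clusters 2, 3 and 4, whose shares differed between conditions, and the clustering did not use the 10 genes or the pathway lists other than the immediate early genes. Cluster 2 held 177 of 534 COL1, 699 of 1083 STIFF, 709 of 1258 MATR and 183 of 1035 SOFT cells. In cluster 4 were 217 COL1, 337 STIFF, 263 MATR and 546 SOFT cells. The part of these shares in the folds of HR-positive cells was not tested. Tnip3 was 48.3 CPM in COL1 and 45.4 in STIFF against 45.9 in MATR and 43.6 in SOFT in cluster 2, with overlapping intervals. It was 241 CPM in COL1 and 87.96 in STIFF against 96.1 in MATR and 194 in SOFT in cluster 3, where STIFF had 47 cells, and 239 CPM in COL1 and 266 in STIFF against 174 in MATR and 240.0 in SOFT in cluster 4. The order of conditions for Tnip3 in all HR-positive cells was thus not that of any single cluster, and within cluster 4 STIFF was above SOFT. Il33 had MATR highest in each: cluster 2 gave 42.2 CPM in COL1 and 31.1 in STIFF against 109 in MATR and 65.99 in SOFT, cluster 3 gave 44.2 CPM in COL1 and 40.2 in STIFF against 115 in MATR and 90.5 in SOFT and cluster 4 gave 36.2 CPM in COL1 and 47.9 in STIFF against 114 in MATR and 54.4 in SOFT. Nfkbia was highest in cluster 4, at 559.8 CPM in COL1 and 741 in STIFF against 406 in MATR and 447 in SOFT, and COL1 and STIFF exceeded MATR and SOFT in each cluster. Cluster 4 also had the most Tnfaip3, 13.1 to 36.2 CPM, against 4.63 to 8.04 CPM in cluster 2. Icam1 was at 13.2 to 20.4 CPM in cluster 4 and at 1.31 to 4.29 CPM in cluster 2.

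The rest of the pathway was read from lists, as means over classes. Of all genes, 0.284% were higher and 0.0894% lower in COL1 over MATR, and 1.47% and 0.247% in STIFF over SOFT. Ligands, the cytokines that start the signal, had 1 of 6 measured genes higher in COL1 than MATR, Tnf at 0.69, and none of 6 higher or lower in STIFF than SOFT. None of 12 receptors passed in COL1 over MATR (median 0.08); in STIFF over SOFT 1 was lower, Tnfrsf1b at -0.60. The 22 signal relay genes, from adaptors to the IkB kinases, had none past 1.5-fold in either comparison, with medians of 0.02 and 0.03. The same held for Rela and Rel, whose values lay between 0.02 and 0.13. None of 10 other inhibitors and feedback genes passed: Traf1 was highest in COL1 over MATR, at 0.14, and Tnip1 lowest, at -0.16. Nfkbia, Nfkbiz and Tnfaip3 were above every gene of that list in both comparisons. Other RNA decay factors also stayed within 1.5-fold, with Zfp36l1 at 0.30 in COL1 over MATR. These means weigh each class equally, while ligands summed to 1051 CPM in COL1 immune cells and 26.0 to 55.3 CPM in the other COL1 classes. In immune cells 2 of 6 ligands were higher in COL1 than MATR (Tnf at 1.44; 2.54% of all genes), and over all singlets 3 of 4 (2.39%). In STIFF over SOFT Il1a was lower in both, at -0.61 and -0.67 (1.59% and 0.964%).

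Secreted and surface targets spread most. In COL1 over MATR 3 of 16 were higher, led by the neutrophil chemokine Cxcl1 at 1.26, and the lowest was Cxcl10 at -0.49. For STIFF over SOFT 2 of 14 were higher and 3 lower, from Cxcl1 at 0.80 to the matrix protease Mmp9 at -0.94. The 4 intracellular targets had none past the threshold in either comparison. Immediate early genes had 3 of 11 higher in COL1 over MATR, with a median of 0.35, and 6 of 11 higher in STIFF over SOFT, with a median of 0.75. Atf3, a stress-response factor, led both, at 0.73 and 1.29. The medians of all genes were -0.0039 and 0.05, and 0.284% and 1.47% of all genes were higher. Among immune cells alone, 8 of 14 secreted and surface targets were higher and 1 lower in COL1 over MATR (2.54% and 1.44% of all genes). Over all singlets 7 of 14 were higher and none lower (2.39% and 0.597%). For STIFF over SOFT, immune cells had 3 of 13 higher and 5 lower (8.33% and 1.59%), and all singlets none of 15 higher and 3 lower (1.4% and 0.964%).

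**Figure D4:**
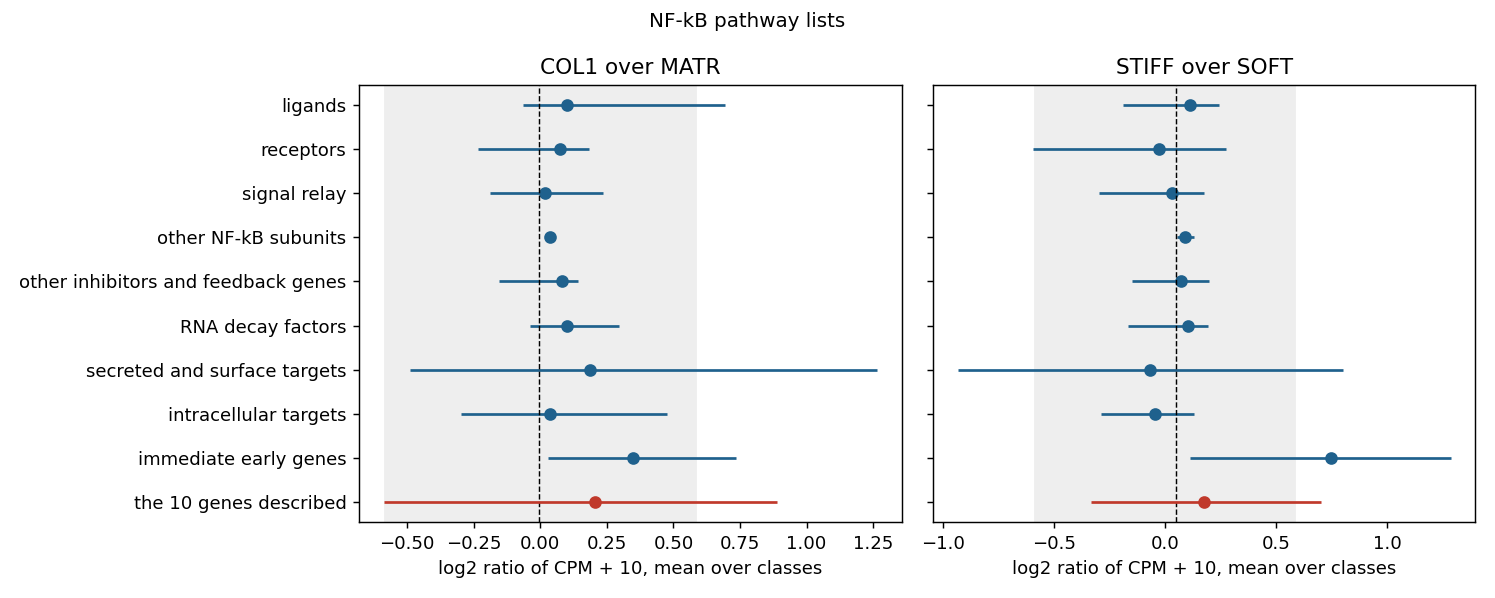
Log2 ratio of CPM + 10, mean over classes, for each pathway list in COL1 over MATR (left) and STIFF over SOFT (right); points are medians, lines run from the lowest to the highest measured gene, the bottom line in red is the 10 genes themselves, the dashed line is the median of all genes and the shaded band is 1.5-fold. Medians lie within the band except that of the immediate early genes in STIFF over SOFT, at 0.75.

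The genes whose levels ran most like each of the 10 were sought over 18 class and condition sums, among 8106 genes of at least 20 CPM in 1 of them, by Pearson correlation of log2(CPM + 10). The sums share 2 channels, 4 cultures and 5 classes, so the correlations describe the pattern only. For Nfkbia they were Ell2 (0.91), Idh1 (0.82), Atf3 (0.79). Nfkbiz was most like Cxcl1 (0.92), Tmed5 (0.90), Tnfaip3 (0.90), and Tnfaip3 like Cxcl2 (0.90), Nfkbiz (0.90), Plk3 (0.89). Cxcl1 and Cxcl2 encode neutrophil chemokines. Tnip3 followed Snx10 (0.96), Slc38a1 (0.96), Sqor (0.95), and Icam1 followed Lrrc8c (0.96), Jag1 (0.95), Col14a1 (0.95). For Zfp36 the closest were Iqgap2 (0.92), Galnt7 (0.91), Hebp1 (0.91), and for Il33 Rbm3 (0.91), Coa3 (0.91), Plac8 (0.90). The subunits gave Ldhb (0.92), Igfbp5 (0.90), Fas (0.89) for Nfkb1, Dph3 (0.88), Aars (0.86), Elovl1 (0.85) for Nfkb2 and Homer3 (0.85), Tubb2b (0.81), Sc5d (0.81) for Relb. Nfkbiz and Tnfaip3 were the only pair of the 10 among each other's closest genes.

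Shares of cells with a UMI were also set side by side at equal depth. At 3000 UMIs per cell, Nfkbia was found in 71.8% of COL1, 69.01% of STIFF, 45.3% of MATR and 53.1% of SOFT immune cells. Without thinning these shares were 91.6%, 93.4%, 86.1% and 84.8%. Nfkbia was found in every class, so none served as its background. In HR-negative cells the thinned shares were 48.6%, 62.03%, 31.8% and 30.7% in the same order, where STIFF was highest. Tnfaip3 reached 20.4% of COL1 and 12.2% of SOFT immune cells, and at most 6.42% of HR-negative cells in any condition. Icam1 was found in 21.6% to 29.3% of basal cells and in 0.565% to 1.33% of HR-negative cells. Cells under 3000 UMIs were left out of these shares, 115 of 1563 in COL1 and 22 to 32 in each other condition.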

How the data were processed

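The deposited matrices held raw counts of UMIs per gene and barcode; per the submitters' processing notes the authors used Cell Ranger 5.0.0, Seurat 4.2.0 and mm10. Each channel was deposited as 2 entries with equal gene counts and was read once (10615 and 8767 barcodes, 133608252 and 131036333 UMIs). Barcodes were kept at 1000 UMIs, 500 genes and no more than 15% mitochondrial UMIs (90.1% and 90.6%). Tags were called with HTODemux in Seurat 5.3.0 (R 4.3.3, positive quantile 0.99); barcodes with both tags (305 and 277) or none were left out of conditions. Scrublet marked 0 cells, so doublets of 1 tag stay in.

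Singlets were clustered in scanpy 1.11.5 (2000 variable genes without the 10 genes, 30 components, 15 neighbours, Leiden resolution 0.5), and untagged barcodes took the cluster of their 15 nearest singlets. Clusters were named where 3 or more markers of a list reached 20 CPM and 2 times the median of the other clusters, unless a second list came to at least 0.5 of the mean log2 ratio of the first (fibroblast and pericyte lists excepted). The low-depth cluster of macrophage genes was left unnamed after its depth was seen. UMIs were summed per class and condition, log2 ratios used CPM + 10, and intervals were exact Poisson or, for folds, conditional binomial intervals (95%). The ratio steps were tested on simulated counts. The genes, lists and settings were chosen with earlier results of these data known. All 10 genes are named in each comparison; of a list, its highest and lowest gene. Alternatives covered tag rules, filters, pseudocount, scaling, clustering and single cells.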

Additional observations from a re-analysis of the deposited data

Results flagged for a closer look

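Il33 differed between COL1 and STIFF in opposite directions in 2 classes. In fibroblasts the log2 ratio was -2.01 and in immune cells 0.65; the difference between the classes was not tested. In COL1 immune cells 21 of 27 Il33 UMIs lay in 1 cell, and without the highest cell of each group the immune log2 ratio was -0.05.

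Il33 also appeared in cells that no class comparison used. The unnamed cluster 7, of 102 singlets with macrophage genes and a median of 1474.5 UMIs, had 238 CPM of Il33 over the 4 conditions, above its level in any named class. Of its COL1 Il33 UMIs, 40 of 41 were in 1 cell.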

How the results depend on the processing

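No paired analysis was possible because each condition was 1 culture. All 14 log2 ratios past 1.5-fold (over all singlets or as means over classes) kept their sign under every setting run for them, and 7 of the 14 stayed past it under each. These were 7 or 8 settings per value. TMM scaling, the other clusterings, the removal of unnamed clusters and a run without a minimum level were not among them. Counts that moved by over 1.5 times or to or from 0 are given first, and the cause was not tested. For COL1 over MATR, 4 higher over all singlets became 2 with tags ignored, 2 higher in the mean over classes became 4 under the raw margin tag rule, and 1 lower there became 0 under the relative tag rule, without the highest doublet scores, with the mean of per-cell CPM, at resolution 1.0 and with the 10 genes and the lists among the variable genes. For STIFF over SOFT, 0 higher over all singlets became 1 at a pseudocount of 1 CPM and 2 without unnamed clusters or with tags ignored, 1 lower became 0 without unnamed clusters, and 3 higher in the mean over classes became 1 under the raw margin tag rule, TMM scaling and resolution 1.0. COL1 over STIFF had 1 higher under the raw margin tag rule in place of 0. MATR over SOFT had 0 lower over all singlets under that rule in place of 1. In its mean over classes, 0 higher became 1 under the relative tag rule, at a pseudocount of 1 CPM and at resolution 1.0, and 0 lower became 1 with the mean of per-cell CPM, at resolution 1.0 and with the 10 genes and the lists among the variable genes. Smaller moves were these: over all singlets COL1 over MATR had 3 higher under the relative tag rule and TMM scaling and 5 at a pseudocount of 1 CPM. Its mean over classes had 3 at that pseudocount, and that of STIFF over SOFT had 2 under the relative tag rule and without the highest doublet scores. Leaving out the highest cell of each group was an alternative chosen after seeing the data. Genes under about 10 CPM are held near 0 by the pseudocount.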
